A study of Mus musculus with 12 samples.

Results

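The cytosolic ribosome is built from ribosomal RNA and a fixed set of ribosomal proteins, those of the large subunit named Rpl and those of the small subunit named Rps. The genes described here were all those on the array whose only listed gene symbol began with Rpl or Rps and a number, together with Rplp0, Rplp2 and Rpsa, without the S6 kinases, Rps19bp1, pseudogenes and the mitochondrial ribosomal proteins. They numbered 49, of 18193 genes named by a single symbol, with 26 in the large and 23 in the small subunit, and were read by 105 probe sets. For 24 genes there were several probe sets, up to 6. A further 31 ribosomal protein symbols, among them Rpl3, Rpl10 and Rplp1, were listed only on probe sets shared with other symbols and are not given values here.

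Total RNA of liver and of quadriceps muscle from C57BL/6 mice was hybridised to Affymetrix Murine 430 2.0 arrays. Each tissue had 3 arrays from control mice and 3 arrays from PGC1beta mutant mice, whose mutation the series title calls hypomorphic, which means that it leaves reduced function. The labels used here give no age, sex or allele, and do not say whether the arrays of a group came from different mice or whether liver and muscle came from the same ones, so the p-values rest on the spread between arrays alone, and that spread may be technical. PGC1beta, encoded by Ppargc1b, is a transcriptional coactivator of nuclear genes for mitochondrial proteins.

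Ribosomal proteins are made in near-equal numbers, because nearly all go into the particle as single copies, the acidic stalk proteins being the exception. Their mRNAs are short, abundant and start with a run of pyrimidines, the 5′ terminal oligopyrimidine (TOP) motif, through which mTOR complex 1 controls their translation according to nutrient and insulin supply. The liver is a tissue with a heavy load of secreted protein, and its ribosome content is known to follow feeding.

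The levels below are deposited probe set intensities, brought to the same distribution across the 6 arrays of a tissue (quantile normalization). Where a gene had several probe sets, the one with the highest mean signal stood for it. Of the 105 probe sets, 40 carry the suffix x_at and 3 the suffix s_at, designs that can also match other transcripts. Differences are in log2(intensity + 16), mutant minus control. They were tested with limma over all genes above a low-signal limit, with Benjamini-Hochberg adjusted p under 0.05 as the threshold. The text says "rose" or "fell" only of genes past it.

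The number of arrays limits the precision: 3 per group. The Ppargc1b probe set read 544, 282 and 479 in control liver and 402, 491 and 202 in mutant liver. It read 302, 284 and 332 in control muscle and 423, 280 and 271 in mutant muscle. The groups overlapped in both tissues, with a difference of -0.28 ± 0.32 (SE, adjusted p = 0.691, limma) in liver and 0.06 ± 0.17 (SE, adjusted p = 0.998, limma) in muscle, and the sources used here do not say whether this probe set lies in the part of the transcript that the mutation alters. Defining hepatocyte genes such as Alb were bright in all liver arrays, at 12318 to 13816, and at 12.2 to 61.0 in muscle, while Ckm, the muscle creatine kinase, was at 10644 to 11869 in muscle and at 8.66 to 47.6 in liver.

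In mutant liver the ribosomal protein mRNAs were shifted upwards, and no member fell. Of 49 genes, 46 passed the low-signal limit in liver (Rpl3l, Rpl39l and Rps16 did not); 12 of them rose and 0 fell. That was 26.1% of the tested members, where 2.33% of all 13326 tested genes rose and 1.03% fell. The count of 12 depended on the processing. It was 0 without limma's variance trend (smallest adjusted p of a member 0.111, 24 with an unadjusted p under 0.05). It was 2 with no low-signal filter, 4 with the mean of a gene's probe sets and 23 with the values as deposited. Over all tested genes 310 rose in the main fit, and 0, 180, 135 and 279 in these alternatives, in the same order. The median difference over the 46 tested members was 0.39, against 0.01 over all tested genes, and 41 were positive, against 51.2% of all genes. Over all 49 members the median was 0.37. At an unadjusted p under 0.05 there were 29 members higher and 1 lower, Rpl4, among 2615 genes (19.6% of all).

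Both subunits took part. The 6 large-subunit genes that rose, of 24 tested, were Rpl13a, Rpl19, Rpl41, Rpl35, Rpl22 and Rpl10a, and the median difference of the large subunit was 0.37. The 6 small-subunit genes that rose, of 22 tested, were Rps14, Rps3, Rps19, Rps24, Rps18 and Rps27l, and the median of the small subunit was 0.39. All 12 were among the 36 members with a mean log2 level of 10 or more; none of the 10 dimmer members passed, although their median difference was 0.36 and 8 of them were positive. Of the 12, 7 were represented by x_at probe sets and 1, Rpl22, by an s_at probe set, which can pick up related transcripts such as those of pseudogenes. Among the 16 tested members with such probe sets 8 rose and the median was 0.51, and among the 30 with other probe sets 4 rose (Rpl10a, Rpl19, Rps19 and Rps3) and the median was 0.33.

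Among the large-subunit genes, Rpl13a encodes a protein that can also leave the ribosome to silence the translation of inflammatory mRNAs in the interferon-driven GAIT complex. It read 5207, 4524 and 5726 in control liver and 9347, 8756 and 8756 in mutant liver. All 3 mutant arrays lay far above the highest control, a 1.74-fold change (log2 difference 0.80 ± 0.10 SE, adjusted p = 0.0168, limma), the largest among the tested members. Rpl35 sits beside the exit of the tunnel through which the nascent chain leaves. It read 3780, 2830 and 3011 in control liver and 6171, 4805 and 4565 in mutant liver, again without overlap, with a difference of 0.69 ± 0.14 (SE, adjusted p = 0.0335, limma). Rpl19, whose long helix reaches across to the small subunit, read 4253, 4172 and 3895 in controls and 6664, 5438 and 6100 in mutants, with a difference of 0.56 ± 0.10 (SE, adjusted p = 0.0228, limma).

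Rpl22 is an RNA-binding protein at the surface of the large subunit that mature ribosomes can do without in many cells. It read 3940, 3310 and 3337 in control liver and 5247, 5412 and 4537 in mutant liver, a difference of 0.52 ± 0.11 (SE). Rpl41, the shortest ribosomal protein, read 8326, 7498 and 7123 in controls and 10579, 10550 and 9945 in mutants, a difference of 0.44 ± 0.08 (SE). Rpl10a forms the base of the mobile L1 stalk that escorts spent tRNAs out of the ribosome. It read 3892, 3496 and 3257 in controls and 4929, 4740 and 4699 in mutants, a difference of 0.43 ± 0.10 (SE). For each of these 3 genes every mutant array lay above every control array, and the limma adjusted p-values were 0.0352, 0.0264 and 0.042.

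Among the small-subunit genes, Rps14, whose loss of 1 copy causes the anaemia of the human 5q- syndrome, had control values in a narrow range. It read 5068, 5154 and 5188 in control liver and 8617, 7681 and 7255 in mutant liver, a 1.52-fold change (log2 difference 0.61 ± 0.09 SE, adjusted p = 0.0181, limma). Rps3, which lines the entry of the mRNA channel, read 5373, 4714 and 4311 in controls and 8107, 6877 and 6455 in mutants, a difference of 0.57 ± 0.11 (SE, adjusted p = 0.0299, limma). Rps18, a protein of the head of the small subunit, read 6647, 6072 and 5804 in controls and 8258, 8138 and 7882 in mutants, with a difference of 0.39 ± 0.08 (SE, adjusted p = 0.0367, limma). All 3 had mutant arrays wholly above the controls.

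Rps19 and Rps24 are needed to process the precursor of 18S ribosomal RNA, and mutations of either in humans cause Diamond-Blackfan anaemia. Rps19 read 2266, 1683 and 1454 in control liver and 3011, 3310 and 2692 in mutant liver, with a difference of 0.75 ± 0.16 (SE, adjusted p = 0.0354, limma). Rps24 read 5397, 3791 and 4006 in controls and 7097, 7203 and 6045 in mutants, with a difference of 0.64 ± 0.14 (SE, adjusted p = 0.0357, limma). In both genes control 1 was the highest control and still lay below all mutants. Rps27l is the paralogue of Rps27 and a known target of p53. It read 4828, 3435 and 4205 in controls and 6305, 6664 and 5604 in mutants, with a difference of 0.58 ± 0.13 (SE, adjusted p = 0.0388, limma).

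**Figure D1:**
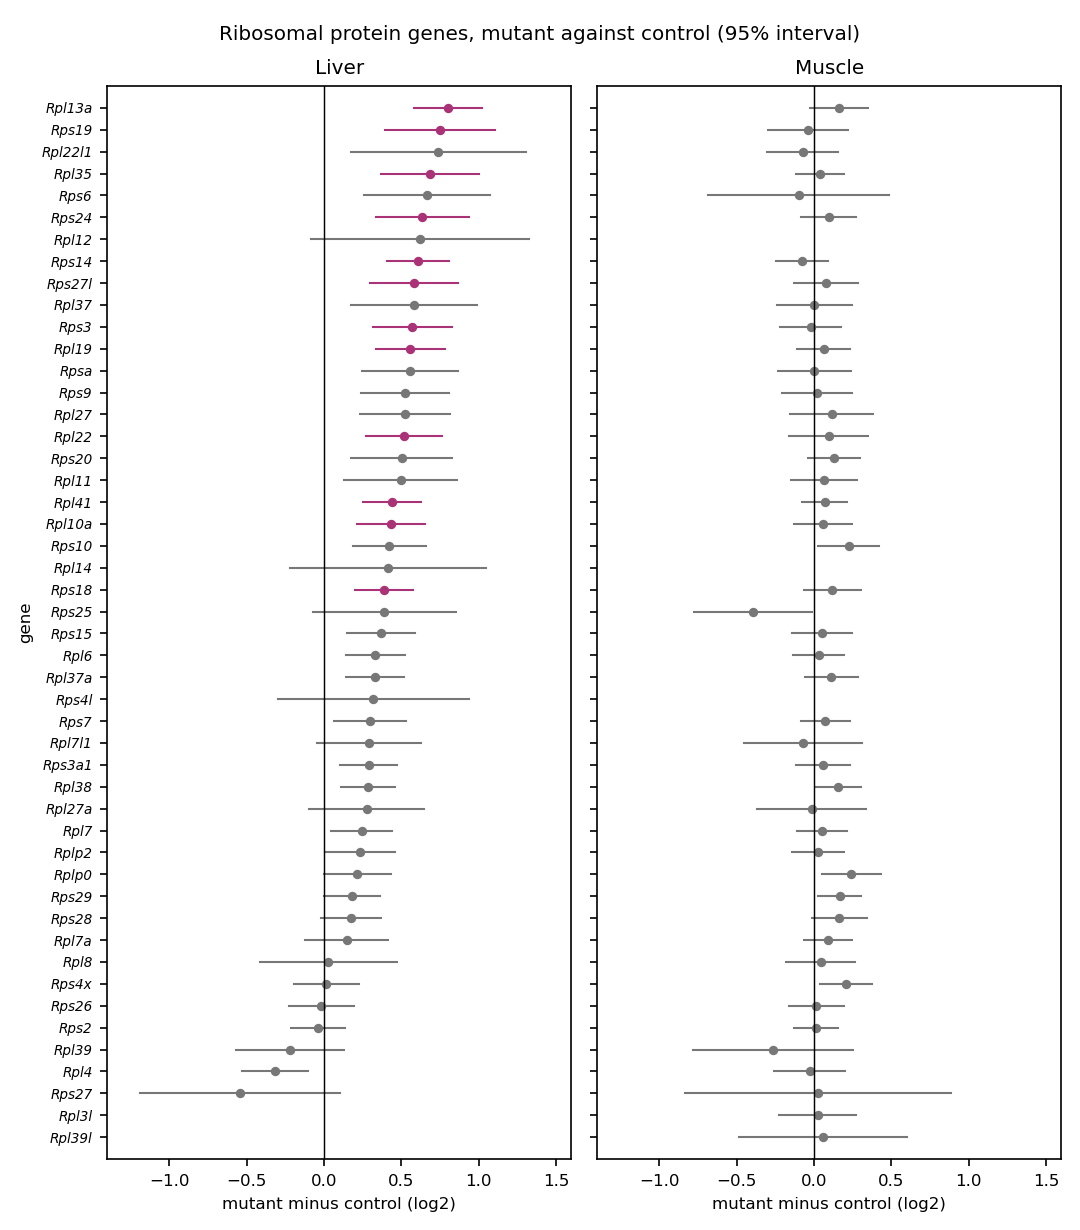
Log2 difference (mutant minus control) with its 95% interval for each ribosomal protein gene tested in liver or muscle, from limma on 3 arrays per group; purple marks adjusted p under 0.05 over all genes. In liver 41 of 46 points lie right of 0 and 12 are purple, while in muscle the points lie close to 0 and none is purple.

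Of the 34 tested members that did not pass, 29 had positive differences. Rpsa, the small-subunit protein also known as the laminin receptor precursor, read 3365, 3552 and 2807 in control liver and 5687, 4010 and 4694 in mutant liver, without overlap (difference 0.56 ± 0.14 SE, adjusted p = 0.0583, limma). The stalk proteins, which recruit the elongation factors to the ribosome, had small differences: 0.22 ± 0.10 (SE, adjusted p = 0.258, limma) for Rplp0 and 0.24 ± 0.10 (SE, adjusted p = 0.237, limma) for Rplp2. Rps6, the ribosomal protein phosphorylated downstream of mTOR complex 1, was read by dim probe sets only, at 87.9, 116 and 94.9 in controls and 167, 141 and 195 in mutants. The mutant arrays lay above the controls, with a difference of 0.67 ± 0.18 (SE) that did not pass (adjusted p = 0.0763, limma).

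The other 5 genes had differences below 0. Rpl4, whose loop lines the narrowest point of the exit tunnel, read 6171, 5846 and 6217 in control liver and 4380, 5154 and 5152 in mutant liver. Its groups did not overlap, but the difference of -0.31 ± 0.10 (SE) did not pass (adjusted p = 0.0995, limma). Rps2 and Rps26, at the entry and the exit of the mRNA channel, differed by -0.04 ± 0.08 and -0.02 ± 0.09 (SE), with overlapping groups. Rpl39 and Rps27, both read by dim probe sets, differed by -0.22 ± 0.16 and -0.54 ± 0.29 (SE), with adjusted p-values of 0.501 and 0.346 by limma. Rps27 had 280, 155 and 187 in controls and 213, 88.0 and 124 in mutants, so these groups overlapped too.

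Of the 46 tested members, 30 (65.2%) had all mutant livers above all control livers and 1, Rpl4, had all below, where 13% and 11% of all tested genes did. By array, the members' median deviation from the control mean was 0.05, -0.05 and -0.00 in the control livers. It was 0.45, 0.33 and 0.35 in the mutant livers, with 41, 40 and 41 of the 46 genes above the control mean. No single mutant array carried the shift, as the plot of deviations by array shows.

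**Figure D2:**
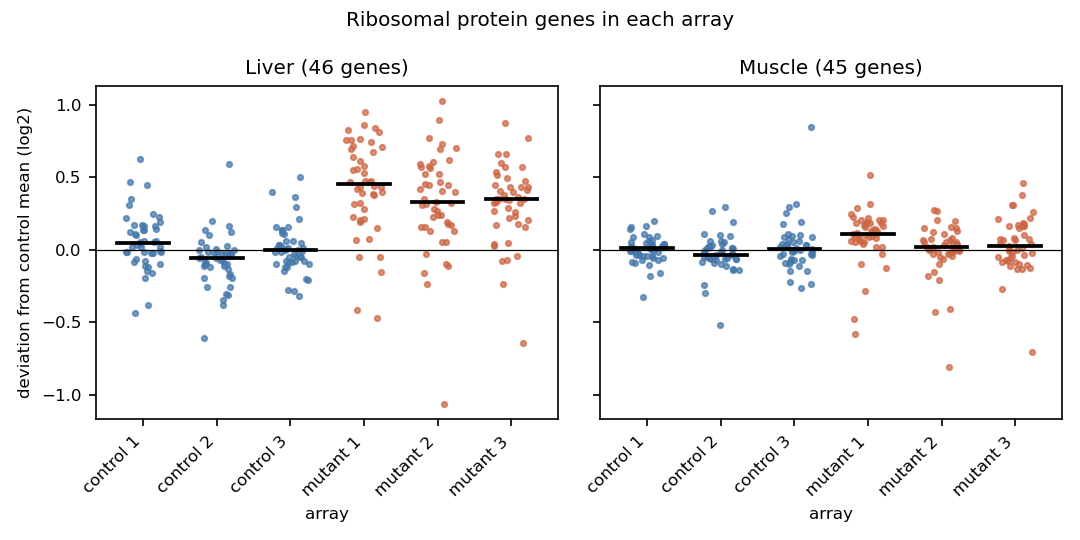
Deviation of each tested ribosomal protein gene from its control mean (log2) in each array, with points for genes and black bars for the medians. The bars of mutant livers 1, 2 and 3 stand at 0.45, 0.33 and 0.35, and those of the muscle mutants at 0.11, 0.02 and 0.03.

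The number of members that passed depended on single arrays. Without control liver 2 and without mutant liver 1 it was 0 (0 over all tested genes), and without control liver 3 it was 1 (24). It was 2 without mutant liver 3 (41), 3 without control liver 1 (25) and 8 without mutant liver 2 (391). With every array kept, 310 of all tested genes rose. The members' median difference stayed between 0.32 and 0.40. The 3′ signal of control transcripts over their 5′ signal (mean log2 ratio) was also higher in 2 of the 3 mutant livers. This ratio grows as RNA is degraded or copied incompletely, so a higher value can come from lower RNA integrity or from incomplete copying. It was 0.74, 0.97 and 0.50 in control livers and 1.90, 0.90 and 1.87 in mutant livers. In mutant liver 2, whose ratio lay within the range of the controls, 40 of 46 members were above the control mean. The part of RNA integrity or of incomplete copying in the result was not tested. With mutant livers 1 and 3 left out, 1 mutant array remained, so only the controls gave a spread and the lone array was assumed to vary like them; the median was then 0.32, 39 of 45 members were positive, and 0 passed in limma (18 had an unadjusted p under 0.05), which with 1 array says nothing about stability. With the ratio as a covariate the median was also 0.32 and 0 members passed in limma (20 had an unadjusted p under 0.05). In that fit 0 of all 13326 tested genes rose and 2 fell.

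**Figure D3:**
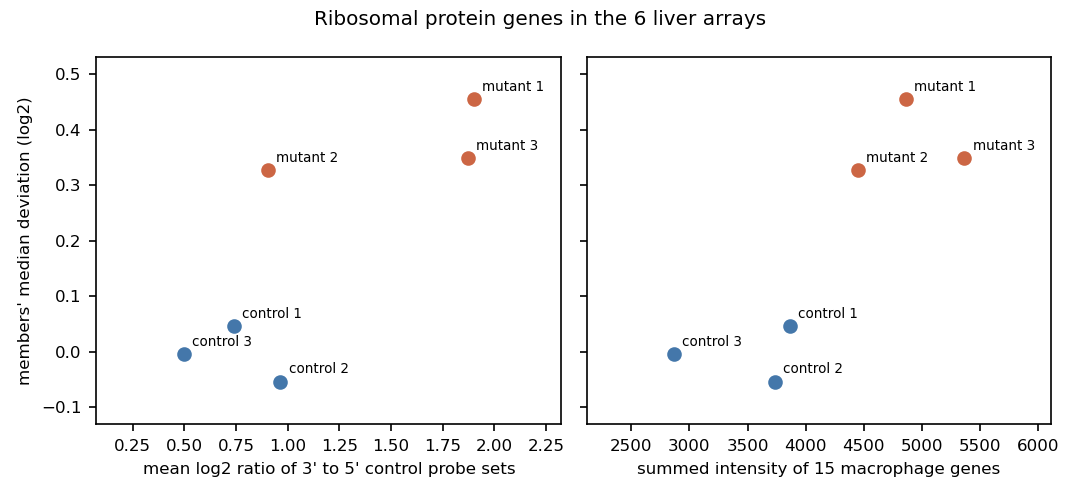
Median deviation of the 46 tested ribosomal protein genes (log2) in each liver array against the array's mean log2 ratio of 3′ over 5′ signal of control transcripts (left) and its summed intensity of macrophage genes (right). Mutant livers 1 and 3 stand apart in the ratio, at 1.90 and 1.87, while mutant 2 at 0.90 lies among the controls.

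Summed markers of some cell types also differed between the liver groups, without overlap for macrophages, lymphocytes and hepatocytes. The sums of neutrophil, endothelial, fibroblast and stellate, adipocyte, cholangiocyte, erythroid and myofibre genes overlapped. Those of endothelial genes, for example, were 1445 to 2256 in control livers and 1653 to 1719 in mutant livers. The summed level of 15 Kupffer cell and macrophage genes was 2865 to 3866 in control livers and 4447 to 5363 in mutant livers. Of the 15, 3 rose, Tyrobp, Lyz2 and Vsig4, and the median difference of the 15 was 0.41. Only Csf1r had a difference below 0, with means of 814 in controls and 780 in mutants (-0.07, adjusted p = 0.882, limma). The 9 measured lymphocyte genes summed to 271 to 361 in controls and 385 to 490 in mutants, and 0 of the 6 tested passed in limma. The brightest in that sum were Ptprc, with means of 77.0 and 114, and Cd8a, with 67.1 and 105. Cd3e, Cd3g and Cd79a were too dim to be tested. The means of Cd3g (21.3 and 11.3) and Cd79a (21.4 and 16.6) were lower in mutants, and those of the other lymphocyte genes were higher. The 9 hepatocyte genes summed to 93288 to 96148 in controls and 80789 to 88839 in mutants, and 1 of them, Tat, fell. In whole tissue, fewer cells of a type and less RNA per cell cannot be told apart, and the part of these cells in the ribosomal protein result was not tested.

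Where a gene had several probe sets, they moved the same way in most cases but by different amounts. With every probe set tested on its own, 94 of the 105 passed the low-signal limit, 28 (29.8%) rose and 0 fell, with a median of 0.48. Over the whole array 1.45% of probe sets rose and 0.607% fell. The 4 probe sets of Rpl13a all rose, by 0.51, 0.80, 0.94 and 1.55. Of the 6 probe sets of Rps24, 4 rose, by 0.64 to 1.23, and a dim one had a difference of -1.18 (adjusted p = 0.105, limma), with mean intensities under 100 in both groups.

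Some genes that did not pass by the probe set with the highest signal had another that did. Rps10, a protein beside the mRNA entry that is mutated in some cases of Diamond-Blackfan anaemia, differed by 0.42 on its representative probe set (adjusted p = 0.0783, limma). Its 5 tested probe sets ranged from 0.30 to 1.84, and 3 of them rose. Rpl7 differed by 0.24 and 0.23 on a pair of probe sets and rose by 0.90 on the third. Rps7 and Rpl27 also had probe sets that rose beside a representative one that did not pass. In the other direction, Rpl10a, Rps18 and Rps27l rose in the test by gene. Over all probe sets the same representative probe sets did not pass (adjusted p = 0.0593, 0.0527 and 0.053, limma).

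Of the 21 genes with 2 or more tested probe sets, 5 had probe sets of opposite sign (Rpl22, Rpl35, Rps24, Rps29 and Rps3), and in 4 of these at least 1 probe set rose. Counting only the 59 probe sets with a mean intensity of 100 or more, in 20 genes, all probe sets of 17 genes were positive. The median spread between the highest and lowest of a gene was 0.25. Rps29 had 0.18 on its representative probe set and -0.03 and -0.02 on the others.

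**Figure D4:**
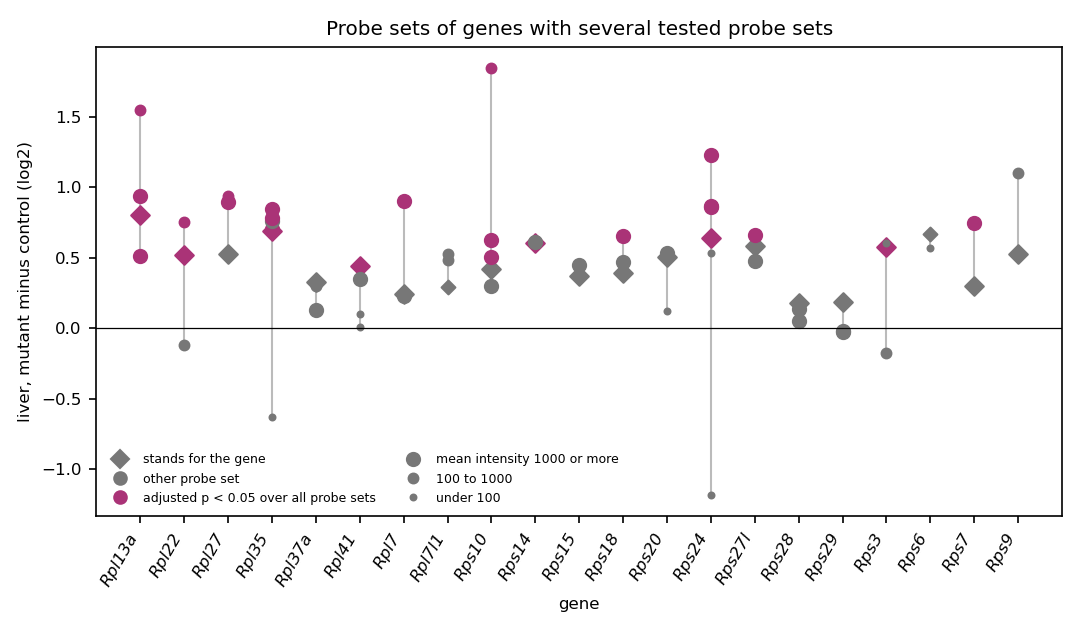
Liver difference (log2, mutant minus control) of each tested probe set, by gene, for the 21 genes with several; diamonds mark the probe set that stands for the gene, symbol size the mean intensity, and purple adjusted p under 0.05 over all probe sets. Rpl13a and Rps10 reach 1.55 and 1.84, and the points far below 0, in Rps24 and Rpl35, are small, with intensities under 100.

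The pyrimidine runs near the starts of these genes are shown to set genes that rose beside genes that did not. RefSeq promoter windows on GRCm38.p6, from 250 bases before to 50 bases after the annotated start, were found for 43 of the 49 genes (51 windows). Each line gives 30 bases 5′ to 3′ on the gene's strand, with the longest run of C and T in capitals. Counted from the annotated start, the runs began at base 3 in Rpl13a, -7 in Rpl35, -2 in Rps18 and 4 in Rps26. In Rps24, Rpl4 and Rpl3l they began at bases 39, 27 and 32, so they do not lie at the start as a TOP motif does. The run of Rps24 reached the end of the window. They cover chr7:45128722-45128751 (minus strand) for Rpl13a, chr2:39005115-39005144 (minus) for Rpl35, chr17:33955648-33955677 (minus) for Rps18 and chr14:24490698-24490727 (plus) for Rps24, which all rose. They also cover chr9:64173405-64173434 (plus) for Rpl4 and chr10:128626485-128626514 (minus) for Rps26, which did not pass, and chr17:24727846-24727875 (plus) for the muscle gene Rpl3l.
Rpl13a: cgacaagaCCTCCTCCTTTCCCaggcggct
Rpl35: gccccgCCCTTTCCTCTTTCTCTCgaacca
Rps18: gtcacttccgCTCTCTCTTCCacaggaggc
Rps24: ttggtcggcagtgagcggTCCTCTTTTCCT
Rpl4: gagcgtggCCTTCTCCTCTCCCCgtcatgg
Rps26: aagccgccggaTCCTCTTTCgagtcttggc
Rpl3l: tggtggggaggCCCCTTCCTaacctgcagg

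A run of 8 or more pyrimidines on the coding strand, from 25 bases before to 50 after the start, was present in 64.7% of the members' windows and in 27.2% of all 32851 windows of the same length. Such a run did not separate the genes that rose: 9 of the 11 risers with a window had one (median longest run 11 bases), and so did 24 of the 32 other members (median 10). Runs were counted anywhere in this stretch, so the counts say nothing about TOP motifs at the start itself. Rpl4, with a run of 15 bases that began at base 27, had a difference below 0, as the values above show. Other short motifs were searched on both strands. CCGGAAG, the core bound by ETS-family factors such as GABP, was present in 41.2% of the members' windows and 8.86% of all. AAGGTCA, the half-site bound by the oestrogen-related receptors that PGC1beta coactivates, was present in 3.92% and 4.72%. AAGATGG, the core bound by YY1, was present in 15.7% and 6.34%, and CTTTCC, searched from 25 before to 50 after the start and overlapping the pyrimidine runs, in 25.5% and 6.93%. These are matches of letters, not binding sites.

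In muscle no member passed the test. Of 45 tested members 0 rose and 0 fell in limma, and 5 had an unadjusted p under 0.05 with a higher and 1 with a lower level; over all 13131 tested genes 0.0152% (2 genes) rose and 0% fell, and 4.26% had an unadjusted p under 0.05. The median difference of the members was 0.05, against -0.00 for all genes, and 35 were positive, where 49.9% of all genes were. Mutant arrays lay above all controls for 9 members (20%) and below for 1, where 4.33% and 5.22% of all tested genes did. The members' median deviation was 0.01, -0.04 and 0.00 in the control arrays and 0.11, 0.02 and 0.03 in the mutant arrays. In mutant arrays 1, 2 and 3, 39, 25 and 25 of the 45 members were above the control mean. Without mutant 1 the members' median difference was 0.032 in place of 0.053, and 26 of 46 tested members were positive.

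The muscle genes with the smallest p-values were Rplp0, Rps4x, Rps29, Rps10, Rpl38, Rps25, Rps28, Rpl13a, Rps20 and Rpl37a. Rplp0, the core of the stalk, read 3153, 2706 and 2664 in control muscle and 3271, 3275 and 3519 in mutant muscle, with a difference of 0.24 ± 0.09 (SE, adjusted p = 0.994, limma). Rps4x read 2485, 2507 and 2792 in controls and 2985, 2971 and 3015 in mutants, a difference of 0.21 ± 0.08 (SE). The groups did not overlap in either gene, but neither difference passed over all genes. Rps25, which some viral mRNAs need to start translation, was dim and had the only lower value of these 10, -0.39 ± 0.17 (SE, adjusted p = 0.994, limma). The remaining 7 differed by 0.11 to 0.23.

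The difference between the tissues was tested as an interaction, liver response minus muscle response, on 43 members measurable in both. It passed for 2 members (4.65%), Rps14 and Rpl13a, and was more negative for 0; over all 11841 tested genes it was more positive in 1.16% and more negative in 0.262%. Rps14 read 3907, 4522 and 4210 in control muscle and 4125, 3923 and 3923 in mutant muscle, so that its muscle groups overlapped where its liver groups did not, and the responses differed by 0.68 ± 0.12 (SE, adjusted p = 0.0188, limma). Rpl13a read 2303, 2042 and 2166 in control muscle and 2576, 2273 and 2458 in mutant muscle, and its responses differed by 0.64 ± 0.14 (SE, adjusted p = 0.0358, limma).

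Over the 43 members the median difference of responses was 0.32, against 0.03 for all genes, with 36 positive and 20 of them at an unadjusted p under 0.05. Of all tested genes 52.3% were positive, and 15.5% had an unadjusted p under 0.05 in either direction. For the other 10 genes that rose in liver, the difference of responses did not pass. Rps19 had the largest of these, 0.79 ± 0.21 (SE, adjusted p = 0.0859, limma). The count was 0 without mutant liver 1, without control muscle 2 and without mutant muscle 2. In these fits 10, 20 and 11 of all tested genes were more positive, beside 137 with every array. The member count was 1 without control liver 2 (103 of all tested genes more positive) and without mutant liver 3 (88). It was also 1 without control muscle 1 (30) or 3 (49), and without mutant muscle 1 (48) or 3 (60). It was 5 without control liver 1 (70 of all tested genes) and 3 without mutant liver 2 (233). With mutant livers 1 and 3 left out, which leaves 1 mutant liver assumed to vary like the other groups, the median was 0.30.

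The control arrays also show how the tissues differ in ribosomal protein mRNAs. These arrays are the ones the mutants were compared with, so the comparisons are not independent. Liver and muscle controls were normalized together here, and the values below are from that scaling. Of 47 tested members, 8 (17%) were higher in liver and 14 (29.8%) higher in muscle by limma, below the 27.5% and close to the 29.9% of all 13436 tested genes. The median difference, liver minus muscle, was -0.07.

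The largest differences were those of paralogues with tissue-restricted levels. Rpl3l, the striated muscle paralogue of Rpl3, read 2.55, 11.3 and 2.81 in control liver and 3107, 3727 and 3084 in control muscle. The liver values lie under the added 16, so the difference of -7.29 ± 0.18 (SE, adjusted p = 5.39e-11, limma) is limited by it. In mutant muscle Rpl3l differed from control by 0.03 ± 0.11 (SE), with overlapping groups. Rps4l, a paralogue of the X-linked Rps4x, showed the reverse pattern, with 147, 292 and 167 in liver and 5.20, 6.87 and 1.89 in muscle (difference 3.35 ± 0.26 SE, adjusted p = 7.45e-07, limma). Rps4x itself differed between the tissues by -0.14 ± 0.09 (SE, adjusted p = 0.229, limma).

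Rps27l read 3313, 2391 and 2892 in liver and 1204, 1117 and 1123 in muscle, a 2.46-fold difference (log2 1.30 ± 0.12 SE, adjusted p = 4.64e-06, limma). Its partner Rps27, on a dim probe set, read 226, 128 and 153 in liver and 42.8, 35.1 and 117 in muscle, with a difference of 1.29 ± 0.33 (SE, adjusted p = 0.00654, limma). Rpl22l1, the paralogue that Rpl22 represses, was higher in muscle in the joint scaling, with 1377, 745 and 744 in liver and 1521, 1485 and 1839 in muscle (difference -0.80 ± 0.21 SE, adjusted p = 0.00737, limma). Rpl22 differed by 0.08 ± 0.11 (SE). With values as deposited Rpl22l1 differed by -0.018 (adjusted p = 0.947, limma), and with median centring by -0.45 (adjusted p = 0.0718, limma). In the joint scaling Rplp2 was lower in liver, at 2357, 2388 and 2409, than in muscle, at 4414, 4657 and 4343, without overlap (difference -0.90 ± 0.08 SE, adjusted p = 4e-06, limma). Its difference was -0.54 (adjusted p = 0.00175, limma) with median centring, but -0.11 (adjusted p = 0.503, limma) as deposited.

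**Figure D5:**
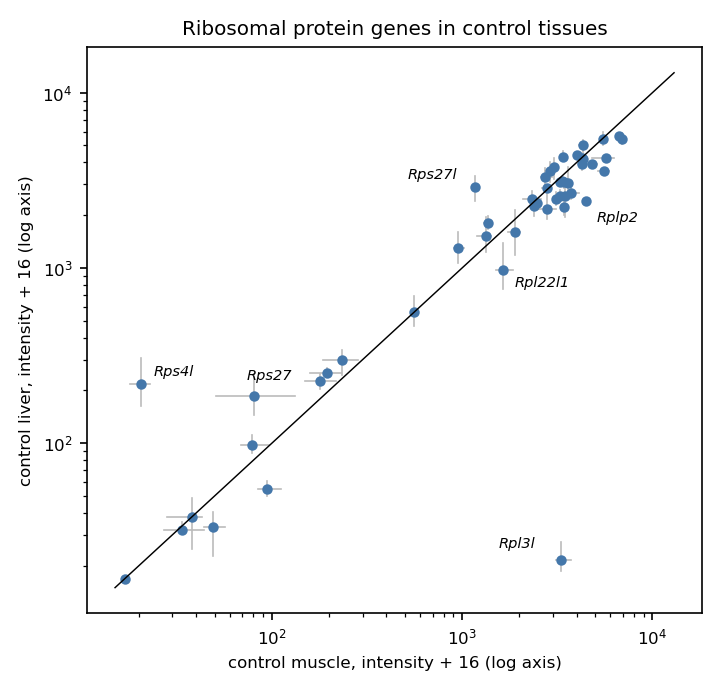
Mean intensity + 16 of each of the 49 ribosomal protein genes in control liver against control muscle, after joint quantile normalization, both on log axes; grey bars span the 3 arrays of each tissue and the line marks equal levels. Most genes lie along the line, with Rpl3l far to the muscle side and Rps4l and Rps27l on the liver side.

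Most of the smaller tissue differences depended on the scaling. Without normalization, the median of all tested genes was itself 0.51 higher in liver and that of the members 0.71 higher, which is 0.21 above all genes; 35 members were then higher in liver and 1 in muscle. With each array centred on its median, 20 were higher in liver and 3 in muscle. Over all 13440 tested genes the counts were 6048 and 2091 without normalization, and 4087 and 3504 with centring. Under all 3 scalings 8 members were higher in liver (Rps4l, Rps27l, Rps27, Rps19, Rps9, Rps18, Rps10 and Rpl13a) and 1 was higher in muscle (Rpl3l), while for 24 members the sign changed with the scaling. Rps14 and Rpl35, which differed by -0.64 and -0.62 under joint quantile normalization, differed by 0.14 and 0.20 as deposited and by -0.30 and -0.23 with median centring. Rps25, a dim member, differed by -0.79 ± 0.20 (SE, adjusted p = 0.00525, limma) in the joint scaling. Its difference was -0.73 (adjusted p = 0.00885, limma) with median centring and -0.30 (adjusted p = 0.291, limma) as deposited.

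Several members have a paralogue, which for some of them can take their place in the ribosome. In mutant liver Rpl22 rose, while Rpl22l1 read 1941, 1003 and 1001 in controls and 2254, 2560 and 1601 in mutants, a larger difference of 0.74 ± 0.25 (SE) with overlapping groups that did not pass (adjusted p = 0.142, limma). Rps27l rose and Rps27 had a difference below 0, as given above. Rpl7 and Rpl7l1 differed by 0.24 ± 0.09 and 0.29 ± 0.15 (SE), and Rps4x and Rps4l by 0.02 ± 0.10 and 0.32 ± 0.28 (SE), none past the threshold. Rpl39l, the paralogue of Rpl39 known from testis, was too dim to be tested in liver and differed by 0.06 ± 0.25 (SE) in muscle. The differences within pairs were not tested.

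The other genes of the translation machinery are given by list, beside the 2.33% of all tested genes that rose and the 1.03% that fell in liver; the differences between lists were not tested. Among 12 elongation and termination factors 1 rose, Eef1b2, a subunit of the factor that reloads eEF1A, and 1 fell, Eef2, which moves the ribosome along the mRNA. Eef2 read 6208, 5644 and 5572 in control liver and 3606, 4530 and 3504 in mutant liver, with no overlap (difference -0.59 ± 0.11 SE, adjusted p = 0.0271, limma). The median of the 12 was -0.01. Among 34 initiation factors 2 (5.88%) rose, Eif1ax by 0.69 ± 0.14 and Eif3i by 0.50 ± 0.12 (SE), with a median of 0.11. Of 8 nascent-chain factors and other TOP-type mRNAs 0 passed in limma, with a median of 0.16, and Fau, which encodes a small-subunit protein fused to a ubiquitin-like one, differed by 0.35 ± 0.10 (SE, adjusted p = 0.0849, limma).

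Of 88 ribosome biogenesis genes 3 (3.41%) rose and 0 fell, a share near that of all genes, with a median of 0.09. The 3 were Nop10, a core protein of the pseudouridylation particles, by 0.54 ± 0.11 (SE), Emg1, an rRNA methyltransferase, by 0.65 ± 0.13 (SE), and Rsl24d1, an assembly factor of the large subunit, by 0.77 ± 0.18 (SE). Of 15 RNA polymerase I genes 1 rose, Polr1d, a subunit shared with RNA polymerase III, by 0.84 ± 0.13 (SE), with a median of 0.31. Of 32 genes of the mTOR pathway 1 (3.12%, also near all genes) rose, Lamtor5, which anchors the pathway at the lysosome. It read 528, 486 and 543 in control liver and 1429, 1048 and 1234 in mutant liver (difference 1.22 ± 0.15 SE, adjusted p = 0.0168, limma), and the median of the 32 was -0.03. In muscle 0 genes of any of these lists passed in limma.

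The mitochondrial ribosomal proteins and the proteasome, other complexes of many small subunits, were set beside the cytosolic ribosome. In liver 15 of 76 mitochondrial ribosomal protein genes rose (19.7%) and 0 fell, with a median of 0.46, and 5 of 39 proteasome genes rose (12.8%) and 0 fell, with a median of 0.31. Positive medians in liver were thus shared by all 3 lists. In muscle the medians were -0.11 for the mitochondrial ribosomal proteins and 0.02 for the proteasome, beside 0.05 for the cytosolic ribosomal proteins. The difference of responses was more positive in liver for 9 mitochondrial ribosomal protein genes of 76 (11.8%) and for 2 proteasome genes of 37 (5.41%), beside 1.16% of all tested genes. The differences between these lists were not tested.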

How the data were processed

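The authors deposited 1 linear intensity per probe set and array, 45101 probe sets on 12 arrays; the series' design text names d-Chip for clustering, and the sources used here do not give how probes were summarised. The 64 control probe sets were set aside, and gene symbols came from the platform annotation, checked through Entrez for 34741 of the 34945 probe sets with 1 symbol (932 had several and 9160 none). An offset of 16 was added, log2 taken, and arrays quantile-normalized within each tissue (for control liver against control muscle, the 6 control arrays together). Genes with a mean over the 40th percentile of the array's probe sets were tested with limma 3.58.1 (R 4.3.3; lmFit, eBayes with a variance trend) and Benjamini-Hochberg adjustment over all tested genes. Scripts were tested on simulated data. Intervals are 95%. Figures used Python 3.11.15 and matplotlib 3.10.9.

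Members, gene lists, tests and the rule for named genes were chosen with earlier results of these data known. Named genes were, in liver, muscle and their difference, up to 12 per direction with the smallest p past the threshold, or the 10 smallest p where fewer than 10 passed; between control tissues, the 6 largest differences per direction; paralogue pairs; Rplp0, Rplp2, Rpsa and Rps6; genes whose probe sets disagreed in sign; and up to 3 per other list. Genes named beyond these, such as those with liver differences below 0, were chosen after their values were seen. Alternatives were other offsets, filters and scalings, no variance trend, all probe sets, array weights, a replicate block, the ratio of 3′ to 5′ signal as a covariate, all arrays in 1 fit and leaving out arrays.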

Additional observations from a re-analysis of the deposited data

Results flagged for a closer look

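The responses of 2 ribosomal protein genes to the mutation differed between liver and muscle by the interaction test. For Rps14 the liver response exceeded the muscle response by 0.68 (log2), and it was higher in 3 of 3 mutant livers than in any control liver. For Rpl13a the excess was 0.64, with 3 of 3 mutant livers above all controls and a muscle difference of 0.16 ± 0.08 (SE).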

How the results depend on the processing

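In liver, the direction of the members' median was the same under every alternative. The number that rose, 12 in the report (310 over all tested genes), was 2 with no low-signal filter (180) and 23 with values as deposited (279). It was 21 with median centring (300), 4 with the mean of a gene's probe sets (135) and 25 with all 12 arrays in 1 fit (652). Without the variance trend it was 0 (0 over all genes, limma), with 24 members at an unadjusted p under 0.05. With the ratio of 3′ to 5′ signal as a covariate it was 0 (0 over all genes), and leaving out 1 array it was 0 to 8 (0 to 391). The median, 0.39, was 0.33 with an offset of 64, 0.61 as deposited, 0.60 with median centring, 0.48 over probe sets and 0.32 with the covariate. It was 0.32 without liver mutants 1 and 3 (1 mutant array left, assumed to vary like the controls) and 0.32 to 0.40 leaving out 1 array. The array numbers were not taken as pairs (same-numbered arrays' deviations correlated at -0.12 to -0.01 in liver and 0.04 to 0.18 in muscle). With them as a replicate block 1 member rose in liver (10 over all genes) and 0 in muscle (2). For the difference of responses 2 members were more positive in that fit (84 over all genes). Among the controls 9 members were higher in liver and 15 in muscle (3631 and 3922 over all genes). For the difference of responses, 2 members passed in the report (137 of all genes more positive). It was 0 with no filter (50), without the variance trend (0) and with the covariate (0). The count was 4 over probe sets (153) and 0 to 5 leaving out 1 array (10 to 233). Its median of 0.32 was 0.55 as deposited, 0.53 with median centring, 0.39 over probe sets and 0.27 to 0.34 leaving out 1 array. Without liver mutants 1 and 3, which leaves 1 mutant liver, it was 0.30. In muscle no count changed; with the mean of all probe sets Rps20 and Rpl37a, at 0.13 and 0.11 in the report, turned to -0.11 and -0.048. Between control tissues, 35 members were higher in liver and 1 in muscle as deposited (6048 and 2091 over all genes). With median centring the counts were 20 and 3 (4087 and 3504), and without the variance trend 4 and 8 (3699 and 3975). The members' median turned to 0.71 as deposited and to 0.28 with median centring. Rps14 and Rpl35 turned to 0.14 and 0.20 as deposited. Of the values of single named genes under the alternatives, 111 kept their call and direction in liver and 129 no longer passed, 22 no longer passed and 5 newly passed for the difference of responses, 13 no longer passed between control tissues, and in muscle 0 passed in limma. The causes of these changes were not tested. With 3 arrays per group, and probe sets near the top of the intensity range for many members, small differences cannot be resolved.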

Other observations

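Ribosomal protein symbols also appear on 110 probe sets that list several symbols, and these were outside the genes described above. In liver 100 of them passed the low-signal limit. Of these 24 rose and 0 fell in limma, where 1.45% of all tested probe sets rose and 0.607% fell. A positive difference was found in 87, and the median difference was 0.38. In muscle 0 of 100 passed in limma, 76 were positive and the median was 0.07. The counts per gene are not given, since these probe sets cannot be tied to 1 gene.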
